A study of Mus musculus with 10 samples.

Results

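Fatty acid uptake, storage and oxidation were followed through 43 genes in the left atrium of adult mice after deletion of Tbx5, a T-box transcription factor of the atrial muscle. The genes were chosen by name for their roles in the pathway, and all 43 were found in the deposited table of 23337 genes. All 43 also had enough reads to be tested, among 13191 genes tested in all. The study compared left atria of 6 Tbx5 knockout mice (3 labelled female, F1 to F3, and 3 labelled male, M1 to M3) with those of 4 control mice (2 labelled male, M1 and M2, and 2 labelled female, F1 and F2) by RNA sequencing. In the knockout mice, a Cre recombinase that tamoxifen activates was driven by the ubiquitous R26 promoter and cut out exon 3 of Tbx5, so the deletion was not limited to muscle cells. The treatment text, which is the same for all 10 samples, gives tamoxifen on 3 days (0.167 mg daily) and death 1 week afterwards. The controls were labelled wild type at Tbx5 (Tbx5 +/+). That text describes the deletion and does not say of the controls separately whether they carried the Cre or were injected. All animals had a mixed C57B6 and 129 background, and their age is 8 to 10 weeks by the characteristics field but 6 to 8 weeks by the text on tissue collection. The labels name separate animals, so the p-values measure the spread between these 10 animals.

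The heart takes most of its energy from long-chain fatty acids. They are freed from circulating triglyceride at the vessel wall, cross the cell membrane, are bound by carriers and are joined to coenzyme A. From there they are either stored as triglyceride in lipid droplets or handed to carnitine, carried into mitochondria and shortened in the cycle called beta-oxidation, whose electrons pass through the electron transfer flavoprotein to the respiratory chain.

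Total counts ran from 5789632 to 7355782 per knockout library and from 5701670 to 7697556 per control library. Values below are normalized counts, the deposited counts divided by a size factor for each library, and adjusted p-values come from edgeR's quasi-likelihood test with Benjamini-Hochberg adjustment over all 13191 genes, read against a threshold of 0.05. Tbx5 itself had 1497, 1991 and 2460.3 normalized counts as the lowest, median and highest of the knockout libraries, against 1077, 992, 785 and 901 in the controls. Its count was higher in every library labelled knockout (log2 fold change 1.03 ± 0.14 (SE), adjusted p = 4.78e-05, exact two-sided permutation p = 0.00476, the smallest that 210 splits can give). Since only exon 3 was deleted, a count over the whole gene does not measure the deletion, and groups are called here as labelled. The labelled sex of all 4 controls went against sex-linked transcripts: Xist, the RNA of the inactive X chromosome, had 6820 and 5250 normalized counts in the controls labelled M1 and M2, against 138 and 9.41 in the controls labelled F1 and F2, and the Y-linked Ddx3y was at 0 in controls M1 and M2 and at 1301 and 998 in controls F1 and F2. The 6 knockout libraries matched their labels. Knockout M3 had more Xist (167 normalized counts) than knockouts M1 and M2 (4.15 and 3.67), and the source of this was not tested. Library names are kept as labelled.

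Cell type markers moved as well. Summed over 9 macrophage markers, the knockout libraries had 9233 to 13717 normalized counts, against 4261 to 5799 in the controls, and all 9 markers passed the test as higher. Summed over 8 cardiomyocyte markers, the range was 376042 to 528633 in knockout libraries and 682568 to 873510.0 in controls. Most of that fall was in Ttn alone, with 104290 to 186763 in knockout libraries and 366267 to 517546 in controls. Of the 8 markers, Ryr2, Ttn and Myh6 were lower and Tnnt2 and Actc1 were higher in the knockouts, while Tnni3, Pln and Ckm did not pass. The 6 atrial markers all passed as lower, with sums of 85511 to 199370.0 in knockout libraries and 326277 to 380544 in controls. Sums that did not overlap and were higher in knockouts also came from 5 ventricular markers (5978 to 12177 in knockout libraries and 1938 to 2550.2 in controls), from 7 markers of smooth muscle and pericytes (3904 to 4791 in knockouts and 2608 to 3085 in controls) and from 7 fibroblast markers (46972 to 58313 in knockouts and 41891 to 45829 in controls). Not all members of these lists rose. Among ventricular markers Myl2 and Myl3 passed as higher, Myh7 and Hey2 did not pass and Irx4 was at 0 in every library. Myh11 and Rgs5 of smooth muscle and pericytes did not pass. Among fibroblast markers Col1a1, Col1a2, Tcf21 and Lum passed as higher, Pdgfra and Gsn passed as lower and Dcn did not pass. The sums of 9 endothelial markers were 9532 to 10335 in knockout libraries and 8749 to 9817 in controls, where Emcn, Tie1 and Cdh5 passed as higher and Kdr and Flt1 as lower. The sums of 5 epicardial and 4 Schwann cell markers overlapped between the groups. In whole tissue, fewer cells of a type and less RNA per cell cannot be told apart, and the part of these shifts in the results below was not tested.

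Of the 43 genes, 5 were higher and 10 were lower in knockout atria, while 28 did not pass the threshold. The higher genes were Acsl5, Acadl, Acadvl, Decr1 and Plin2. The lower genes were Cd36, Slc27a1, Acsl1, Acsl6, Acadm, Etfa, Acot13, Mlycd, Plin4 and Lipe. Those counts are 11.6% higher and 23.3% lower, beside 20.8% higher and 21.8% lower among all genes tested. The share of all fatty acid genes past the threshold was 34.9%, against 42.6% of all genes tested. Every change was moderate. No fatty acid gene moved by more than 1 on the log2 scale, and 37 of 43 (86.0%) had a log2 fold change of less than 0.5 in size, against 67.8% of all genes tested. The median size of the log2 fold change was 0.25 over the 43 genes and 0.32 over all genes tested.

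Groups did not overlap for few of the genes. Every knockout library lay below every control library for 5 genes, Cd36, Acsl1, Acsl6, Plin4 and Dgat2, where 15.0% of all genes tested did so. For Acadvl alone, all knockouts exceeded all controls, as was the case for 16.3% of all genes tested. Cd36, Acsl1, Acsl6 and Plin4 stayed past the threshold in the same direction in each of 24 other ways of running the test. The other 11 called genes lost the call in at least 1 of them, so the calls of 4 genes hold throughout and the rest depend on settings or on single libraries. Scaling by library size alone, which shifted the median log2 fold change of all genes to 0.14, gave 10 fatty acid genes higher and 4 lower, beside 3942 genes higher and 2020 lower in all against 2741 and 2881 with the usual scaling. With offsets for GC content and exon length, 3 were higher and 16 lower, beside 2473 higher and 2674 lower of the 11948 genes tested that way. Leaving out control F1 left 1 higher fatty acid gene, Acsl5, beside 2408 higher genes in all. Leaving out control M1, control F2 or knockout F2 left 6, 5 and 6 lower fatty acid genes, beside 2320, 2432 and 2541 lower genes in all.

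**Figure D1:**
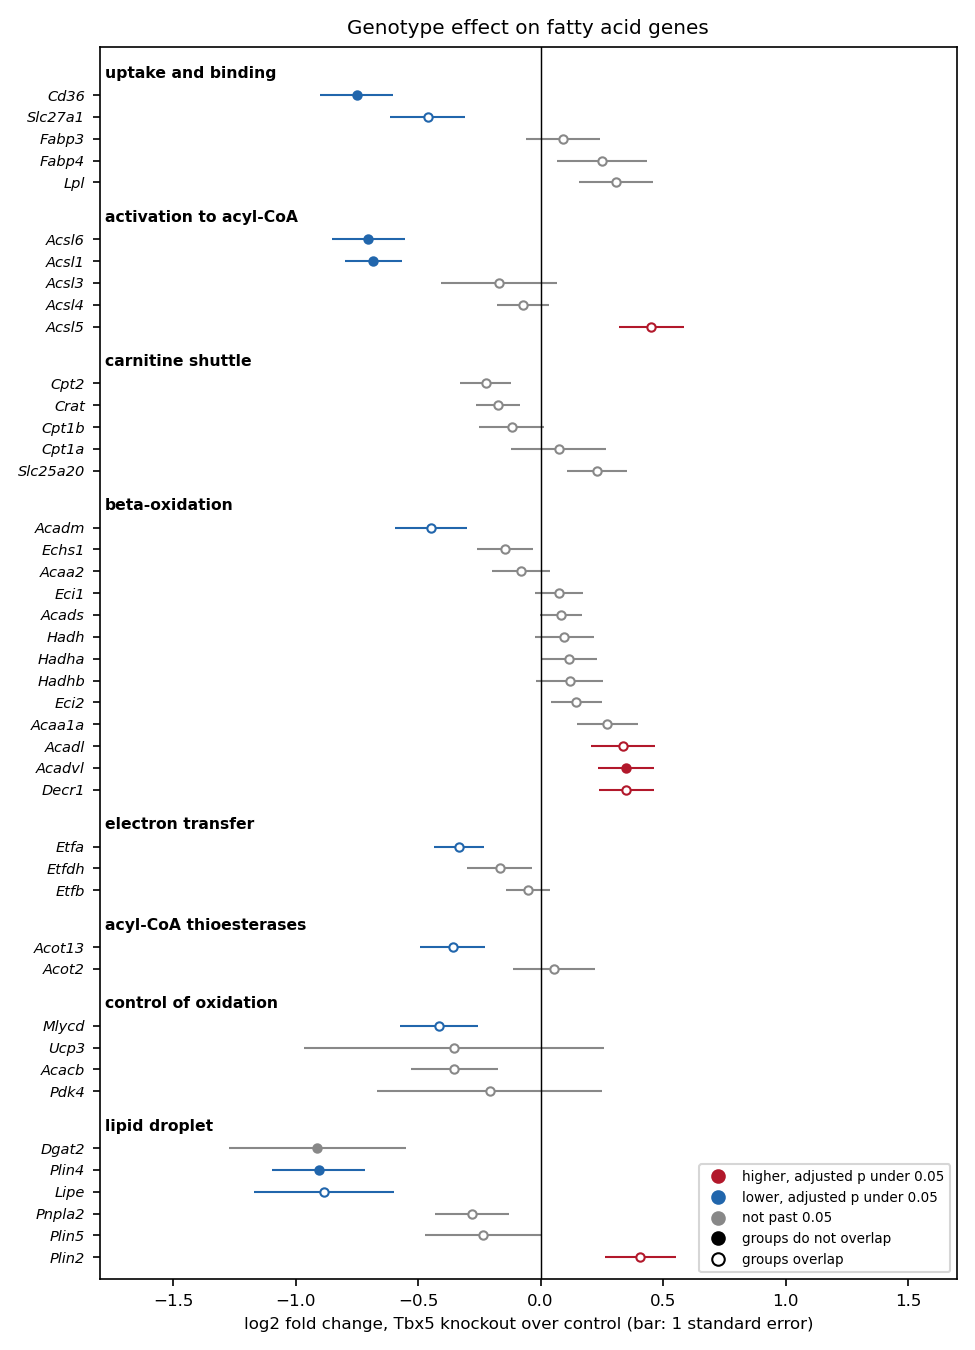
Log2 fold change of each of the 43 genes (horizontal axis, Tbx5 knockout over control, bars of 1 SE), grouped by step of the pathway, with colour for genes past an adjusted p of 0.05 and filled points for genes whose groups do not overlap. The filled and coloured points are Cd36, Acsl1, Acsl6 and Plin4 on the lower side and Acadvl on the higher side, and Dgat2 is filled but not past the threshold.

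Of the 5 uptake and binding genes, 2 were lower and 3 did not pass. Cd36 encodes the main membrane translocase for long-chain fatty acids in heart muscle and capillary cells. The knockout libraries had 4259.9, 5770.4 and 7535 normalized counts of Cd36 as lowest, median and highest, against 10604, 9412, 9151 and 8222 in controls M1, M2, F1 and F2. All 6 knockout libraries lay below all 4 controls, and knockout M3 was the closest to them. The means were 5638 ± 1197 normalized counts in knockout libraries (SD, n = 6) and 9347 ± 981 in control libraries (SD, n = 4), and the difference passed the test (log2 fold change -0.75 ± 0.15 (SE), adjusted p = 0.00118). Across the 24 alternatives the log2 fold change ran from -0.91 to -0.62. The gene lies on chromosome 5, 17781690 to 17888801 of GRCm38, on the minus strand, and none of its 51-base windows occurs in another annotated gene.

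Slc27a1 encodes a fatty acid transport protein that also activates what it takes up. It had 422, 509 and 741 normalized counts in knockout libraries (lowest, median, highest), against 810.1, 681, 699 and 859.8 in controls. Knockouts F3 and M1 reached into the control range, and the call (log2 fold change -0.46 ± 0.15 (SE), adjusted p = 0.0255) was lost when control M1, control F2, knockout F1 or knockout F2 was left out (adjusted p of up to 0.101).

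The other uptake genes did not pass. Fabp3, the heart's cytoplasmic fatty acid binding protein, had 1947, 2931 and 3409 normalized counts in knockout libraries and 2687, 2648, 2259 and 2621 in controls, and the knockout range enclosed the control range (log2 fold change 0.09 ± 0.15 (SE), adjusted p = 0.665). Of its 51-base windows 36.9% also occur in other annotated genes, among them the pseudogene Fabp3-ps1, so reads may be shared. Lpl, the lipase that frees fatty acids from circulating lipoproteins, was the most abundant of the 43 by count. It had 16421, 19257 and 20981 normalized counts in knockout libraries, against 19832, 17759.6, 11436 and 12321 in controls. The knockout libraries stood with controls M1 and M2, and controls F1 and F2 stood below them all (log2 fold change 0.31 ± 0.15 (SE), adjusted p = 0.120). Without control M1 the Lpl difference passed the test (log2 fold change 0.48, adjusted p = 0.0247). Fabp4, a binding protein of capillary endothelium, macrophages and fat cells, had the same arrangement, with 1471, 2006 and 2393 in knockout libraries and 2178, 2001, 1243 and 1195 in controls (log2 fold change 0.25 ± 0.18 (SE), adjusted p = 0.292).

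The activation step held the clearest changes. Of the 5 long-chain acyl-CoA synthetases, which join a fatty acid to coenzyme A, 2 were lower, 1 was higher and 2 did not pass. Acsl1 is the main synthetase of heart muscle. It had 2056, 2738 and 3062 normalized counts in knockout libraries, against 4872, 4159.7, 3907 and 4078 in controls, with no overlap of the groups. The means were 2690.4 ± 366 normalized counts in knockout libraries (SD, n = 6) and 4254 ± 425 in control libraries (SD, n = 4), with log2 fold change -0.68 ± 0.12 (SE), adjusted p = 3.67e-04. Acsl6, known mostly from brain and testis, had the same proportional change at a far lower level. Its knockout libraries had 44.0, 49.1 and 70.6 normalized counts, against 86.3, 83.0, 83.3 and 84.7 in controls. The 4 controls had a coefficient of variation of 1.83%, knockout F1 was the highest of the knockouts, and the groups did not overlap (log2 fold change -0.70 ± 0.15 (SE), adjusted p = 0.00171). Acsl1 lies on chromosome 8, 46471037 to 46536051, and Acsl6 on chromosome 11, 54303798 to 54364756, both on the plus strand of GRCm38.

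Acsl5, a synthetase of the mitochondrial and reticulum membranes best known from intestine and liver, went the other way. It had 298, 376 and 443 normalized counts in knockout libraries and 260.2, 309, 269 and 207 in controls (log2 fold change 0.45 ± 0.13 (SE), adjusted p = 0.0130). Knockouts F3 and M1 lay at or under the level of control M2, and the other 4 knockouts lay above all controls. No single library decided this call, but it was lost without both controls F1 and F2 (log2 fold change 0.35, adjusted p = 0.123). Acsl4, which prefers arachidonic acid, differed by -0.07 ± 0.11 on the log2 scale (adjusted p = 0.616). Acsl3, a synthetase of the reticulum and of growing lipid droplets, differed by -0.17 ± 0.24 (adjusted p = 0.598).

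The family was also compared per length of exon, taken over all annotated exons of a gene joined. Acsl1 averaged 257 normalized counts per kb in knockout libraries and 406 per kb in controls, and Acsl5 averaged 74.9 per kb in knockouts and 53.8 per kb in controls. The log2 ratios that follow are of normalized counts within each library, without division by exon length. The log2 ratio of Acsl5 to Acsl1 was -3.36 to -2.43 in knockouts and -4.30 to -3.75 in controls, with no overlap. The ratio of Acsl4 to Acsl1 did not overlap either, at -3.53 to -3.10 in knockouts and -3.99 to -3.66 in controls on the log2 scale. The ratio of Acsl6 to Acsl1 overlapped, at -6.01 to -5.41 in knockouts and -5.82 to -5.55 in controls. Summed over the 5 synthetases, the level was 335 to 435 normalized counts per kb in knockout libraries and 503 to 596 per kb in controls, of which Acsl1 was the largest part. Acsl1, already lower with no overlap, is the divisor of each ratio, and Acsl4 itself did not pass. The ratios thus restate the Acsl1 difference in part. They are descriptions and were not tested.

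**Figure D2:**
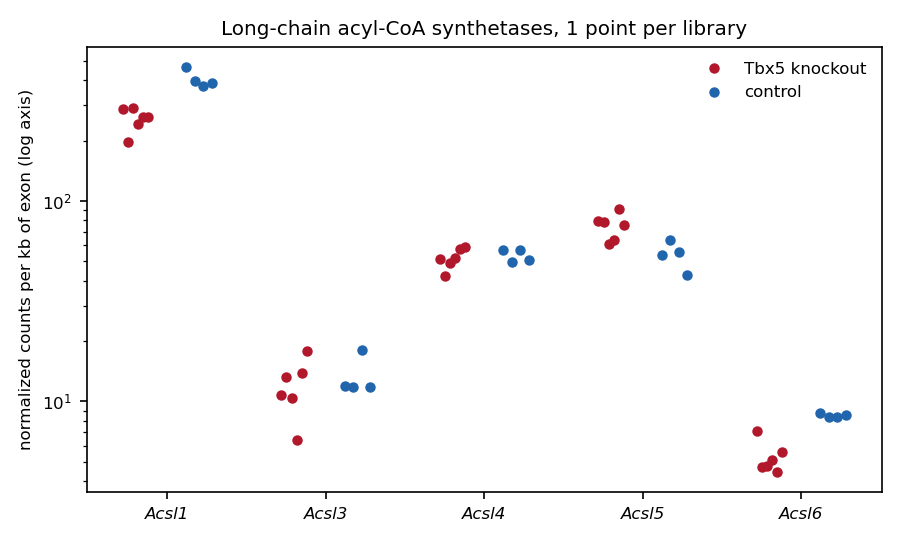
Levels of the 5 long-chain acyl-CoA synthetases in normalized counts per kb of exon (vertical log axis), 1 point per library, knockout left of control. Acsl1 lies apart and lower in all 6 knockout libraries, Acsl6 is lower at the bottom of the scale, and Acsl5 points are shifted upwards with overlap.

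The upstream sequences of the 3 lower genes with no overlap in these first steps are shown because Cd36, Acsl1 and Acsl6 were lower together. Each is a stretch of 121 bases from the RefSeq promoter table (GRCm38.p6), written along the gene's strand, and the capitals mark a short motif found by search. In Cd36 (chr5:17836026-17836146, minus strand) they mark the nuclear receptor core AGGTCA read on the opposite strand. The Cd36 stretch lies upstream of a start inside the gene, whose annotated span begins on this strand at 17888801. In Acsl1 (chr8:46470881-46471001, plus strand) they mark the T-box core GGTGTGA. In Acsl6 (chr11:54303601-54303721, plus strand) they mark TGACCTTGA, the motif of estrogen-related receptors on the opposite strand, which contains the shorter core. A further match of that core in the Acsl6 stretch, also on the opposite strand and nearer its left end, is left in lower case.
Cd36: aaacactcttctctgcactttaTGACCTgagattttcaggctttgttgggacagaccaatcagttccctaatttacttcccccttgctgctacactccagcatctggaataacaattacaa
Acsl1: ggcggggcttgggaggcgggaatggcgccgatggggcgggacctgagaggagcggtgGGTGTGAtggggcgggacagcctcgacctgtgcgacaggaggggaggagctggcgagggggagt
Acsl6: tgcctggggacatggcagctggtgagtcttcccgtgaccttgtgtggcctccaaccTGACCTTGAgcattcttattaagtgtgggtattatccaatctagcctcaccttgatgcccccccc
The table held 42 promoters of 35 of the 43 genes, each from 250 bases before to 50 after a start. On either strand, the T-box core was in 2 of the 42 (4.76%), those of Acsl1 and Slc27a1, against 3.29% of the promoters of tested genes. The estrogen-related receptor motif was in 1 (2.38%), that of Acsl6, against 0.276%. The nuclear receptor core was in 11 (26.2%), which belong to Cd36, Acsl6, Acadm, Acadvl and Plin2, all past the threshold, and to Cpt1a, Echs1, Acacb, Ucp3 and Plin5, none of them past it, against 12.2%. The direct repeat of that core with a base between, called DR1, was in none of the 42 and in 0.0334% of the promoters of tested genes. The search for the single core was added after the data were seen. A match is only a run of letters.

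None of the 5 carnitine shuttle genes passed. Cpt1a and Cpt1b encode the liver and muscle forms of the enzyme that loads acyl groups onto carnitine at the outer mitochondrial membrane, the entry point of oxidation. Cpt1a had 419.98, 726 and 817 normalized counts in knockout libraries and 821, 779.8, 474 and 462 in controls (log2 fold change 0.07 ± 0.19 (SE), adjusted p = 0.793). Its controls fell into a high pair, M1 and M2, and a low pair, F1 and F2, and the knockout libraries ran from below the low pair to about the high pair. Cpt1b had 62.2, 70.2 and 86.7 in knockout libraries and 80.4, 83.8, 65.9 and 79.5 in controls, with overlap (log2 fold change -0.12 ± 0.13 (SE), adjusted p = 0.497). These low counts cannot be read as the level of the muscle enzyme. Of its exon bases 81.4% lie under another annotated gene on the same strand, Gm44502, which has no entry in the table. The part of this overlap in the low counts was not tested.

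Cpt2, which returns acyl groups to coenzyme A inside the mitochondrion, had 480.1, 626 and 704 normalized counts in knockout libraries and 786, 682, 657 and 710.2 in controls. The groups overlapped only through knockouts F3 and M1, and the difference did not pass (log2 fold change -0.22 ± 0.10 (SE), adjusted p = 0.0991), though it did with GC and length offsets (log2 fold change -0.41, adjusted p = 0.00675). Slc25a20, the carnitine-acylcarnitine carrier, had a log2 difference of 0.23 ± 0.12 (adjusted p = 0.143), and it passed without knockout M1 (adjusted p = 0.0340). Crat, which buffers acetyl groups on carnitine, had one of -0.17 ± 0.09 (adjusted p = 0.140). Summed over the step, the level was 736 to 942 normalized counts per kb in knockout libraries and 816 to 985 per kb in controls, so the groups overlapped.

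Beta-oxidation itself had 3 higher genes, 1 lower gene and 9 that did not pass, and all 13 had log2 fold changes under 0.5 in size. The acyl-CoA dehydrogenases, which open each turn of the cycle and divide their substrates by chain length, split in direction. Acadvl, for very long chains, had 4329, 5329 and 6296 normalized counts in knockout libraries and 4141, 4189, 3818 and 4100.3 in controls. All knockouts lay above all controls, by a narrow margin in knockout F2 (log2 fold change 0.35 ± 0.11 (SE), adjusted p = 0.0251). The call was lost without control F1 (adjusted p = 0.0576). Its exons overlap those of Dvl2 on the opposite strand over 42.9% of their bases. Dvl2 had 50.2, 51.7 and 55.0 normalized counts in knockout libraries and 60.3, 58.4, 62.5 and 69.0 in controls (adjusted p = 0.0688). How reads from the overlap were assigned is not known, and the part of Dvl2 in the Acadvl values was not tested.

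Acadm, for medium chains, was lower. It had 1626, 2190.4 and 2735 normalized counts in knockout libraries and 2739, 2444, 3350.5 and 3201 in controls. Control M2 lay among the knockouts, control M1 just above their highest value and controls F1 and F2 well above it (log2 fold change -0.45 ± 0.15 (SE), adjusted p = 0.0247). The call was lost without control F1, control F2 or knockout F2 (adjusted p 0.0544 to 0.0961). Acadl, for long chains, had 2629.8, 3099 and 4097 in knockout libraries and 2409, 2158, 2647 and 2744 in controls, and its groups met at knockout M2 (log2 fold change 0.34 ± 0.13 (SE), adjusted p = 0.0488). This call was lost when any of 7 of the 10 libraries was left out, the exceptions being control F2 and knockouts F2 and M2 (adjusted p 0.0546 to 0.114). Acads, for short chains, did not pass (0.08 ± 0.09 on the log2 scale, adjusted p = 0.458).

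The remaining enzymes of the cycle moved little. Hadha and Hadhb are the subunits of the mitochondrial trifunctional protein, which carries out the later reactions on long chains. Hadha had 4312, 5260.03 and 6238 normalized counts in knockout libraries and 4923, 4857, 4663 and 4756 in controls, and Hadhb had 534, 661 and 916 in knockout libraries and 726, 634, 607 and 597 in controls. For both, the 4 controls lay inside the knockout range (0.12 ± 0.11, adjusted p = 0.436 for Hadha and 0.12 ± 0.14, adjusted p = 0.518 for Hadhb, log2 scale). Decr1, the reductase needed for polyunsaturated chains, had 1916, 2283 and 2917 in knockout libraries and 1948, 1897, 1697 and 1688 in controls. Knockout F2 lay within the control range and the other 5 knockouts lay above it (log2 fold change 0.35 ± 0.11 (SE), adjusted p = 0.0225). The call was lost without control F1 (adjusted p = 0.0525). The 6 others, Hadh, Acaa1a, Acaa2, Echs1, Eci1 and Eci2, had log2 fold changes of -0.14 to 0.27 and did not pass. The peroxisomal thiolase Acaa1a had the largest of these and passed without knockout F1 (adjusted p = 0.0467) or knockout M1 (adjusted p = 0.0490). Summed per kb, the step had 8103 to 11334 normalized counts in knockout libraries and 8151 to 9461 in controls.

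Of the electron transfer genes, Etfa, the alpha subunit of the flavoprotein that takes electrons from the dehydrogenases, was lower (-0.33 ± 0.10, adjusted p = 0.0171). Its knockout libraries had 604, 745 and 828 normalized counts, against 879.8, 822, 1005 and 928 in controls, and knockout M1 lay just above control M2. The call was lost without control F1 (adjusted p = 0.0819) or control F2 (adjusted p = 0.0564). Etfdh, the oxidoreductase that passes the electrons on to ubiquinone, and Etfb, the beta subunit, did not pass (-0.17 ± 0.13 and -0.05 ± 0.09). Of the Etfb exon bases 58.2% lie under another annotated gene. Acot13, a thioesterase that splits acyl-CoA back into acid and coenzyme A, was lower (-0.36 ± 0.13, adjusted p = 0.0432), with 665, 947 and 1133 in knockout libraries and 1110.4, 1186, 1165 and 1239.5 in controls. It lost the call when any of 7 libraries was left out (adjusted p 0.0502 to 0.118). The mitochondrial thioesterase Acot2 did not pass (0.05 ± 0.17, adjusted p = 0.824), and it shares 27.4% of its 51-base windows with the neighbouring Acot genes.

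The largest falls among the 43 by log2 fold change were in the lipid droplet genes Dgat2 (-0.91), Plin4 (-0.91) and Lipe (-0.88). Of these, Dgat2 did not pass, and the Lipe value was -0.07 without both controls M1 and M2. Of the 6 droplet genes, 2 were lower, 1 was higher and 3 did not pass. Their median log2 fold change was -0.58, which lies in the gap between Lipe and Pnpla2 (-0.28). Plin4, a perilipin that coats droplets and is abundant in fat, heart and muscle, had 785, 1180.1 and 1596 normalized counts in knockout libraries and 2664, 1693, 1953 and 2443 in controls. The groups did not overlap, with knockout F3 closest to control M2 (log2 fold change -0.91 ± 0.19 (SE), adjusted p = 0.00175). Knockouts labelled male had 897, 785 and 1061 and those labelled female had 1469, 1299 and 1596, a difference that did not pass over all genes (log2 -0.67 ± 0.18, adjusted p = 0.329).

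Plin2, the droplet coat protein found in most tissues, was higher. It had 312, 358 and 449 normalized counts in knockout libraries and 311, 347, 222 and 225 in controls (log2 fold change 0.41 ± 0.14 (SE), adjusted p = 0.0347). Controls F1 and F2 lay below all knockouts, control M1 lay just below their lowest value, and control M2 lay inside their range. The call was lost without control F1, control F2, knockout F1 or knockout M2 (adjusted p 0.0687 to 0.102), and without both controls F1 and F2 the log2 fold change was 0.17. Dgat2, which makes triglyceride in the last step of its synthesis, had 626, 419.6, 722, 114, 225 and 609.8 in knockouts F1, F2, F3, M1, M2 and M3, against 799, 758, 776 and 1031 in controls. All knockouts lay below all controls, knockouts M1 and M2 by far, and the spread among knockouts kept the difference from passing (log2 fold change -0.91 ± 0.36 (SE), adjusted p = 0.0566). It passed in 8 of the 24 alternatives, limma-voom among them (log2 fold change -1.16, adjusted p = 0.0342). Knockouts M1 and M2 also had the lowest summed atrial markers of the 6, 96419 and 85511 against 158490 or more in the other knockouts. Nppa, the largest part of that sum, was at 58194 and 47696.5 there and at 110193 or more in the others. Myl4 and Sln were also lowest in knockouts M1 and M2, but Gja5 was highest in them (122 and 124), and Myl7 and Stard10 were not lowest in both. The part of these marker differences in the Dgat2 values was not tested.

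The lipases of the droplet were Pnpla2, which starts the breakdown of triglyceride, and Lipe, hormone-sensitive lipase. Pnpla2 had 525, 641 and 936 normalized counts in knockout libraries and 1008, 707, 699 and 879.7 in controls and did not pass (-0.28 ± 0.15, adjusted p = 0.155), though it did without knockout M1 (log2 fold change -0.37, adjusted p = 0.0318). Lipe passed as lower (log2 fold change -0.88 ± 0.29 (SE), adjusted p = 0.0232), and its knockout libraries had 82.9, 134 and 183, against 403, 279, 133 and 142 in controls. Only controls M1 and M2 stood above the knockouts, and controls F1 and F2 lay within their range. The call was lost without control M1 (log2 fold change -0.50, adjusted p = 0.155) or control M2 (adjusted p = 0.0729), and without both the log2 fold change was -0.07 (adjusted p = 0.860). Plin5, a perilipin that tethers droplets to mitochondria in oxidative tissue, did not pass (-0.23 ± 0.24, adjusted p = 0.457).

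**Figure D3:**
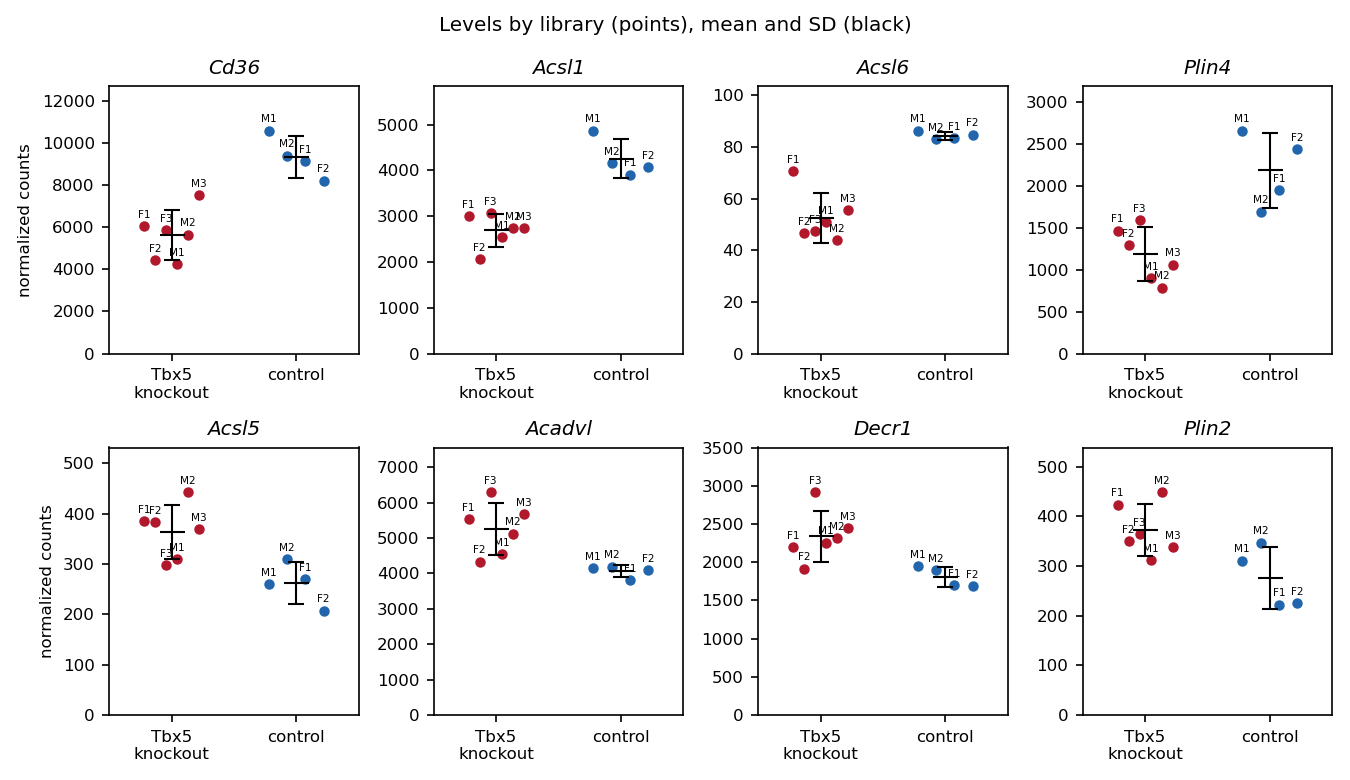
Normalized counts (vertical axes from 0) of 8 genes in each library, knockout left of control, with the mean and SD in black. Cd36, Acsl1, Acsl6 and Plin4 are lower in all 6 knockout libraries than in any control, Acadvl is higher in all 6, and Acsl5, Decr1 and Plin2 are shifted upwards with overlap.

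Markers of fat cells were set beside these droplet genes, since fat holds Lipe, Plin4, Dgat2, Fabp4 and Lpl at high levels. Summed over 8 adipocyte markers, the level was 115, 80.0, 138, 147, 114 and 98.2 normalized counts in knockouts F1, F2, F3, M1, M2 and M3, and 304, 401, 37.0 and 53.3 in controls M1, M2, F1 and F2. Cidea alone made up most of that sum in controls F1 and F2 and in every knockout except M1, so the sum does not rank these libraries by fat. Adipoq, the fat cell hormone adiponectin, had 0, 3.19 and 9.34 in knockout libraries and 39.0, 41.5, 2.31 and 0 in controls. Cfd had 3.72, 15.1 and 47.7 in knockout libraries and 132, 226, 1.16 and 10.5 in controls. In the controls Ucp1 was at 0, and Lep was at 0 except for 1.05 normalized counts in control F2. Controls M1 and M2 were therefore the libraries high in both fat markers and Lipe, and the part of fat tissue in the Lipe values was not tested. The Plin4 log2 fold change was -0.89 (adjusted p = 0.0118) without both controls M1 and M2. Of the 8 markers, 2 had enough reads to be tested. Cfd passed as lower (adjusted p = 0.0285, edgeR) and Cidea as higher, with 66.5, 75.7 and 121 in knockout libraries and 49.7, 50.0, 33.5 and 31.4 in controls (log2 fold change 1.00 ± 0.21 (SE), adjusted p = 0.00186).

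The genes that set how much fatty acid is burned had 1 lower gene and 3 that did not pass. Mlycd, which breaks down malonyl-CoA and so relieves the brake on carnitine loading, was lower (-0.41 ± 0.16, adjusted p = 0.0477), with 272, 309 and 449 normalized counts in knockout libraries and 569, 441, 350.4 and 394 in controls. Control M1 alone lay above the knockouts, and the call was lost in 17 of the 24 alternatives, with an adjusted p of up to 0.541. Acacb, the mitochondrial acetyl-CoA carboxylase that makes malonyl-CoA, had 931, 1315 and 2116 in knockout libraries and 2068, 1689, 1423 and 1678 in controls. Knockout M1 was above all controls, the other 5 knockouts were below all controls (log2 fold change -0.35 ± 0.18 (SE), adjusted p = 0.125), and without knockout M1 the difference passed (log2 fold change -0.50, adjusted p = 0.00504).

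Pdk4 and Ucp3 varied more between the controls than between the genotypes. Pdk4 is a kinase that shuts off pyruvate oxidation when fat is burned, and Ucp3 is a mitochondrial carrier that rises with fatty acid supply. Pdk4 had 4845, 4279, 5292, 6065, 9336 and 3369 normalized counts in knockouts F1, F2, F3, M1, M2 and M3, and 13707, 7479, 1796 and 2164 in controls M1, M2, F1 and F2. All 6 knockouts lay above controls F1 and F2 and, except knockout M2, below controls M1 and M2 (log2 fold change -0.21 ± 0.46 (SE), adjusted p = 0.751). Ucp3 had 210.01, 54.9, 198, 146, 121 and 26.2 in the knockouts and 370.1, 203, 39.3 and 28.2 in the controls, with controls M1 and M2 high and controls F1 and F2 low (log2 fold change -0.35 ± 0.61 (SE), adjusted p = 0.679). The direction of both depended on which controls were kept. Without controls M1 and M2 the log2 fold changes were 1.48 for Pdk4 (adjusted p = 0.00471) and 1.91 for Ucp3 (adjusted p = 0.0498). Without controls F1 and F2 the Pdk4 value was -0.94 (adjusted p = 0.0407).

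The difference within the controls was then read out of a fit on group and labelled sex, a contrast added after the data were seen. Controls labelled male exceeded controls labelled female 5.32-fold in Pdk4 (log2 2.41 ± 0.38, adjusted p = 0.0272), which was the only one of the 43 genes past the threshold, beside 0.0682% of all genes tested that were higher and 0.152% that were lower. Ucp3 (log2 3.07 ± 0.71, adjusted p = 0.144), Lipe (1.29 ± 0.30, adjusted p = 0.154), Lpl (0.65 ± 0.17, adjusted p = 0.279), Fabp4 (0.77 ± 0.21, adjusted p = 0.320), Cpt1a (0.76 ± 0.24, adjusted p = 0.427) and Plin2 (0.55 ± 0.18, adjusted p = 0.490) had differences in the same direction that did not pass. The same contrast among the 6 knockouts gave none of the 43 genes and 8 of all genes tested, and their Pdk4 difference was 0.37 ± 0.30 on the log2 scale. The sex-linked transcripts split the controls into the same 2 pairs with the names turned round, so the pair labelled male is the one with high Xist and no Ddx3y.

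**Figure D4:**
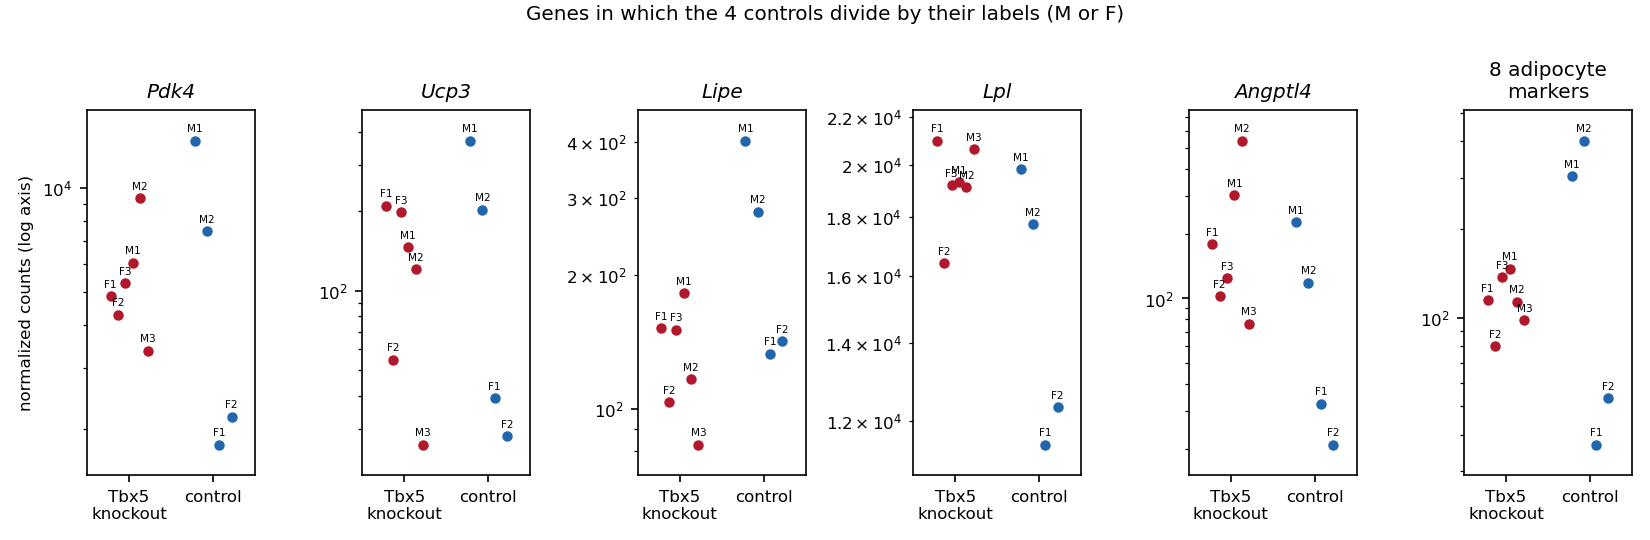
Normalized counts (log axes) of Pdk4, Ucp3, Lipe, Lpl, Angptl4 and the sum of 8 adipocyte markers in each library, named M or F as labelled, knockout left of control. In all 6 panels controls M1 and M2 lie above controls F1 and F2, with Pdk4 at 13707 and 7479 against 1796 and 2164. The panels were chosen after the values were seen.

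The genotype effect was also compared between animals labelled female and male. None of the 43 genes passed for a difference of the effect, with edgeR or with limma-voom, beside 27 of all genes tested (0.205%) with edgeR and 16 with limma-voom. At an unadjusted p under 0.05 there were 10 of the 43 (23.3%) with edgeR, beside 7.15% of all genes tested. This comparison takes the controls by labels that their sex-linked transcripts contradict. By the labels, the log2 fold change of Pdk4 was 1.25 in animals labelled female and -0.79 in those labelled male (adjusted p of the difference 0.164, edgeR), and that of Ucp3 was 2.18 in animals labelled female and -1.56 in those labelled male (adjusted p = 0.168). Mean normalized counts of Pdk4 were 4805 in knockouts labelled female and 6257 in knockouts labelled male, against 1980.1 in controls labelled female and 10593 in controls labelled male. Mean normalized counts of Ucp3 were 154 in knockouts labelled female and 97.8 in knockouts labelled male, against 33.8 in controls labelled female and 287 in controls labelled male. With the controls taken by their transcripts in place of their labels, these means would lie on the opposite side of their controls in both sexes and for both genes, so no direction by sex can be read.

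The coefficient of variation was larger among knockouts than among controls for 30 of the 43 genes and smaller for 13. The same count was not made over all genes tested, and the groups differ in their number of libraries. A wider spread in knockouts can therefore not be read as a trait of fatty acid genes. In the controls the coefficient of variation was highest for Ucp3 (101%), Pdk4 (88.9%) and Lipe (53.5%) and lowest for Acsl6 (1.83%) and Hadha (2.38%). In the knockouts it was highest for Ucp3 (59.1%) and Dgat2 (53.6%). Per kb of exon, the order of control levels began with Fabp3, Acaa2, Cd36 and Pdk4, at 3103, 2955, 2604 and 1791 normalized counts per kb. Acsl6 was at the end of that order with 8.51 per kb. The length is that of all annotated exons of a gene joined, which can exceed that of any transcript. For Lpl it was 10478 bases, while the longest transcript held 4065 windows of 51 bases. The order therefore depends on the annotation and is not a ranking of expression.

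**Figure D5:**
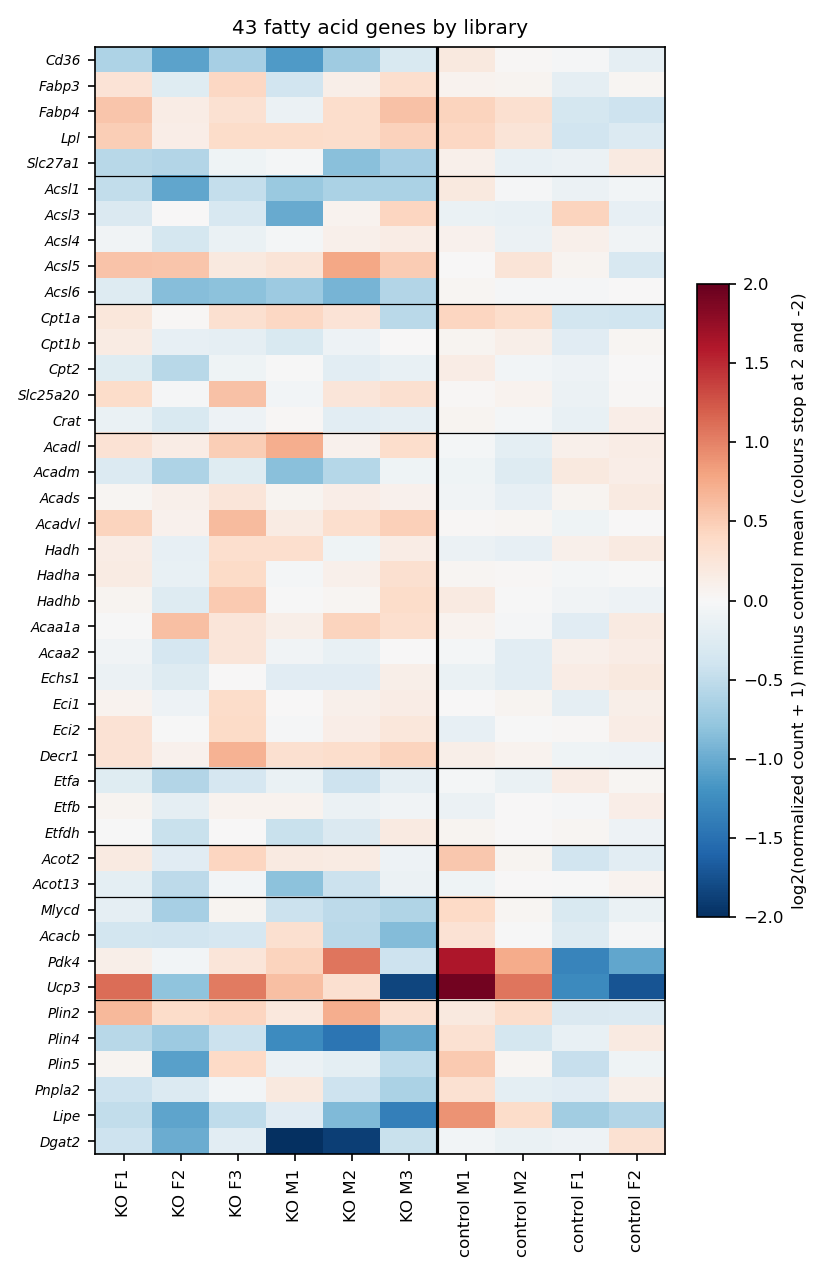
Each gene (rows, grouped by step) in each library (columns, knockout left of control) as log2(normalized count + 1) minus the mean of the controls, with colours that stop at 2 and -2. Cd36, Acsl1, Acsl6 and Plin4 are blue in all 6 knockout columns, while the strongest colours among the controls are in Pdk4 and Ucp3, red in M1 and M2 and blue in F1 and F2.

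Of 73 other genes of fatty acid handling, 72 were tested, and 14 were higher and 16 lower in knockout atria. These counts are near the shares of all genes tested, 20.8% higher and 21.8% lower. The counts by list below are to be read beside those shares, and no list was tested as a set. Among other uptake genes, 3 of 9 were higher and 1 was lower. Vldlr, a receptor that takes up triglyceride-rich lipoprotein, had 773, 995 and 1428 normalized counts in knockout libraries and 3925, 2664, 3539 and 3212 in controls (log2 fold change -1.71 ± 0.16 (SE), adjusted p = 2.92e-06), with no overlap. Slc27a6, a fatty acid transport protein of the heart, had 8.25, 13.9 and 15.2 in knockout libraries and 4.73, 1.69, 3.47 and 0 in controls, close to the detection limit (log2 fold change 2.36 ± 0.46 (SE), adjusted p = 0.00110). Among other droplet and triglyceride genes, 2 of 18 were higher and 5 lower. The lowest adjusted p-values there belonged to Lpin1, a phosphatidate phosphatase on the way to triglyceride (603, 828 and 1084 in knockouts, 2061, 2030.3, 1765 and 2068 in controls, log2 fold change -1.26 ± 0.14, adjusted p = 1.31e-05), and Fitm1, which helps droplets form in muscle (101, 148 and 181 in knockouts, 240.1, 373, 430.2 and 528 in controls, -1.47 ± 0.19, adjusted p = 4.19e-05). For Vldlr, Lpin1 and Fitm1 every knockout library lay below every control.

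In peroxisomal oxidation, 3 of 9 tested genes were lower and none was higher, with Scp2 (-0.59 ± 0.10, adjusted p = 2.86e-04) and Abcd3 (-0.47 ± 0.09, adjusted p = 6.50e-04), a thiolase and an importer of long chains, in front. In ketone use, 2 of 5 were higher and none was lower, namely Bdh1, which oxidizes beta-hydroxybutyrate (1.63 ± 0.35, adjusted p = 0.00186), and Oxct1, which activates acetoacetate (0.33 ± 0.10, adjusted p = 0.0177). In fatty acid synthesis, 4 of 12 were higher, among them the elongase Elovl1 (0.85 ± 0.11, adjusted p = 4.87e-05) and the desaturase Fads1 (0.73 ± 0.12, adjusted p = 3.20e-04), and 2 were lower. Among other activation and acyl-CoA genes, 2 of 10 were higher, among them Acot9 (0.64 ± 0.13, adjusted p = 0.00125), and 2 were lower, among them the acetyl-CoA synthetase Acss1 (-0.64 ± 0.13, adjusted p = 0.00186). Among other mitochondrial oxidation genes, 1 of 6 was higher and 3 were lower, with Acad10 (-0.55 ± 0.13, adjusted p = 0.00468) and Acad11 (-0.51 ± 0.13, adjusted p = 0.00757) at the lowest adjusted p-values. None of 3 other carnitine genes passed.

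The authors' deposited table, which holds their own DESeq2 comparison, gave 5 of the 43 genes higher and 9 lower at an adjusted p under 0.05. All 14 were also called here in the same direction, and no fatty acid gene had opposite signs in that table and here.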

How the data were processed

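RNA of left atria was sequenced as single-end reads of 51 bp after globin depletion, per the labels' protocols, in which an mRNA kit and removal of ribosomal RNA from total RNA both appear. The submitters' processing notes list TopHat2 2.0.11, featureCounts, DESeq2 and FastQC with build mm10. How strand, annotation and ambiguous reads were handled in counting is not given in the sources consulted, so overlapping genes and near-identical copies may share reads. The authors deposited whole-number counts per gene and library, per the file headers. The authors also deposited a normalized signal, in which each library's counts are divided by its size factor, which is the normalized count of the text. Per the file headers, the authors' table further holds a log2 fold change with its standard error, a linear fold, a test statistic (a score, not used here), a p-value and an adjusted p-value from their DESeq2 comparison of knockout with control.

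The counts of all 10 libraries were tested in R 4.3.3 with edgeR 4.0.16, with filterByExpr, TMM scaling, the quasi-likelihood F-test and Benjamini-Hochberg adjustment over 13191 genes. The standard error is the size of the log2 fold change divided by the square root of F. Functions were tested on simulated data. Exon lengths, positions and shared 51-base windows came from GENCODE M21 on GRCm38, and promoters from RefSeq's GRCm38.p6 table. Library replicates correlated at 0.964 to 0.986 within groups (log2 CPM). Genes with a few reads per library have a large counting error.

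The genes, their steps, the other lists and the tests were chosen with earlier results of these data known. Values by library are given for up to 8 rises and 8 falls past the threshold without overlap, for 14 set genes of the steps, and, chosen after their values were seen, for further called genes and those that divide the controls. Up to 2 genes of each other list are named by smallest adjusted p. Alternatives were 3 other scalings, DESeq2 1.42.0, limma-voom (limma 3.58.1), 2 other filters, labelled sex or a replicate block as covariates, GC and length offsets, testing against a fold of 1.2 and libraries left out. Leaving out both controls M1 and M2 or both controls F1 and F2 was added after the data were seen.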

Additional observations from a re-analysis of the deposited data

Results flagged for a closer look

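Each of the 43 genes was screened in each group for a library standing apart from the rest, by the gap to its nearest neighbour as a share of the group's range. Of 86 such groups 4 passed, and chance alone gives about 1 in 20. Fabp3 was lowest in control F1, at 2259 normalized counts against 2621 to 2687 in the other controls (gap 0.847 of the range). Acsl3 was highest in control F1, at 78.6 against 51.3 to 52.0 in the other controls (gap 0.972). Acacb was highest in knockout M1, at 2116 against 931 to 1343 in the other knockouts (gap 0.652). Dgat2 was highest in control F2, at 1031 against 758 to 799 in the other controls (gap 0.848).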

How the results depend on the processing

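Of 24 alternatives, none ended the calls of Cd36, Acsl1, Acsl6 and Plin4, and 11 other called genes lost theirs in at least 1, Mlycd in 17, Acadl and Acot13 in 14 each. Of the uncalled genes 16 passed somewhere and 12 nowhere. The main test gave 5 higher and 10 lower fatty acid genes, with 2741 and 2881 of all genes. Library size scaling gave 10 and 4, with 3942 and 2020 of all genes. GC and length offsets gave 3 and 16, with 2473 and 2674 of the 11948 genes tested that way. Testing beyond a fold of 1.2 gave 0 and 4, with 1717 and 1875 of all genes. Omitting knockout M3 along with control F1 gave 1 higher and 6 lower, with 2277 and 2439 of all genes. Leaving out both controls M1 and M2 gave 7 and 6, with 2141 and 2009 of all genes. Leaving out both controls F1 and F2 gave 0 and 7, with 1811 and 1842 of all genes. Leaving out 1 library gave 1 to 6 higher and 5 to 11 lower fatty acid genes, with 2408 to 3042 higher and 2301 to 3043 lower among all genes. With all libraries the log2 fold changes of Pdk4 (-0.21) and Ucp3 (-0.35) did not pass. Without both controls M1 and M2 they turned positive (1.48 and 1.91) and passed. The cause of these and of the other changes was not tested.

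A replicate block on the names that both groups share (M1, M2, F1, F2) gave 2 higher fatty acid genes, Acsl5 and Plin2, and 13 lower ones, with 2599 and 2812 of all genes. The names are not shown to pair animals: the correlations of same-named libraries' deviations from their group means were -0.13, -0.05, -0.04 and 0.17.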

Other observations

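Of the transcription regulators that govern much of fatty acid oxidation, only Ppara and Ppargc1a were read out of the same test, after their values were seen. They do not stand for the other regulators. Ppara, a nuclear receptor that fatty acids activate, had 215, 408 and 567 normalized counts (lowest, median, highest) in knockout libraries and 729.6, 634, 644 and 758 in controls. Every knockout lay below every control (log2 fold change -0.75 ± 0.20 (SE), adjusted p = 0.00764, edgeR). Ppargc1a, a coactivator of mitochondrial genes, had 230.00, 367 and 426 in knockout libraries and 879.8, 632, 951 and 972 in controls, again with no overlap (log2 fold change -1.31 ± 0.16 (SE), adjusted p = 2.37e-05, edgeR). Angptl4, an inhibitor of lipoprotein lipase, had 76.4, 151 and 542 in knockout libraries and 226, 119, 32.4 and 20.9 in controls, where M1 and M2 were higher than F1 and F2, and it did not pass (log2 fold change 1.13 ± 0.62 (SE), adjusted p = 0.156, edgeR).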
